A study of Mus musculus with 9 samples.

Results

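Ependymal cells line the brain ventricles and carry tufts of motile cilia that stir the cerebrospinal fluid. Measured here were 10 genes of those cilia in the hippocampus of wild-type mice at postnatal day 21: Foxj1, Dnah5, Dnah11, Dynlrb2, Rsph1, Rsph4a, Spag17, Ccdc39, Ccdc153 and Tmem212. They were chosen by name, as motile cilia genes, and read beside Ttr, the transthyretin gene of the choroid plexus. All 10 are among the 23412 gene symbols of the deposited table, 8 under the same symbol and 2, Dnah5 and Dnah11, under the older symbols Dnahc5 and Dnahc11.

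The study measured RNA by bulk sequencing in 9 hippocampus samples, 3 in each of 3 groups, to ask which postnatal window is sensitive to perfluorooctane sulfonate (PFOS), a persistent surfactant. Control pups were sham treated. PFOS P1-7 pups nursed from dams given 1 mg/kg body weight of PFOS by daily gavage from day 1 to day 7, and PFOS P8-14 pups from dams given the same dose from day 8 to day 14. The dose that reached a pup is not stated, and nothing in the labels says whether samples come from separate animals or litters, so p-values measure only the spread between these samples, which may be partly technical.

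A motile cilium is built on an axoneme of microtubules. Outer and inner dynein arms are its motors, radial spokes and the central pair regulate the beat, and Foxj1 is the transcription factor that switches on the motile cilia genes. Epithelial cells of the choroid plexus, which secrete cerebrospinal fluid and make transthyretin, derive from the same lining and also bear cilia, so both cell types border the ventricle beside the hippocampus. In bulk tissue, fewer cells of a type and less RNA per cell cannot be told apart.

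Values are in TPM, each gene's length-scaled share of all transcripts, so levels can be set side by side between genes. They keep no sequencing depth, so the depth is unknown and values below about 1 TPM have a precision that cannot be given. All 10 hippocampal markers examined were measured well enough to be tested, and their summed level was 826 to 1050 TPM over the 9 libraries. The libraries fell on both sides of a wide gap in Ttr, at 9446 to 11626 TPM in 5 of them and 35.1 to 108 TPM in the other 4. Control replicate 3 lay above the gap, as did replicates 1 and 3 of the P1-7 group and replicates 1 and 2 of the P8-14 group. The gap splits each group, 1 of 3 controls above it against 2 of 3 in either exposed group. It was drawn from measured values, so the sides are not groups of the study.

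The level of most motile cilia genes followed this gap. In 8 of the 10, every library above the Ttr gap was higher than every library below it, and among the 7 members tested (those with at least 1 TPM in 3 libraries) this held for 6, against 4.12% of all 14336 tested genes. The exceptions were Dnah5 and Tmem212. Since the members were picked with earlier results of these libraries known, this count is a description only.

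Foxj1, on chromosome 11 (116330704 to 116335499, GRCm38), is the regulator of the set and stood at 12.16, 8.51 and 25.52 TPM in control replicates 1, 2 and 3, at 29.07, 12.15 and 24.81 TPM in PFOS P1-7, and at 32.71, 20.70 and 13.30 TPM in PFOS P8-14. The 5 libraries high in Ttr held 20.70 to 32.71 TPM and the others 8.51 to 13.30 TPM, while the 3 groups overlapped. Group levels were 15.4 ± 8.96, 22.0 ± 8.80 and 22.2 ± 9.80 TPM (mean ± SD, n = 3 samples each).

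**Figure D1:**
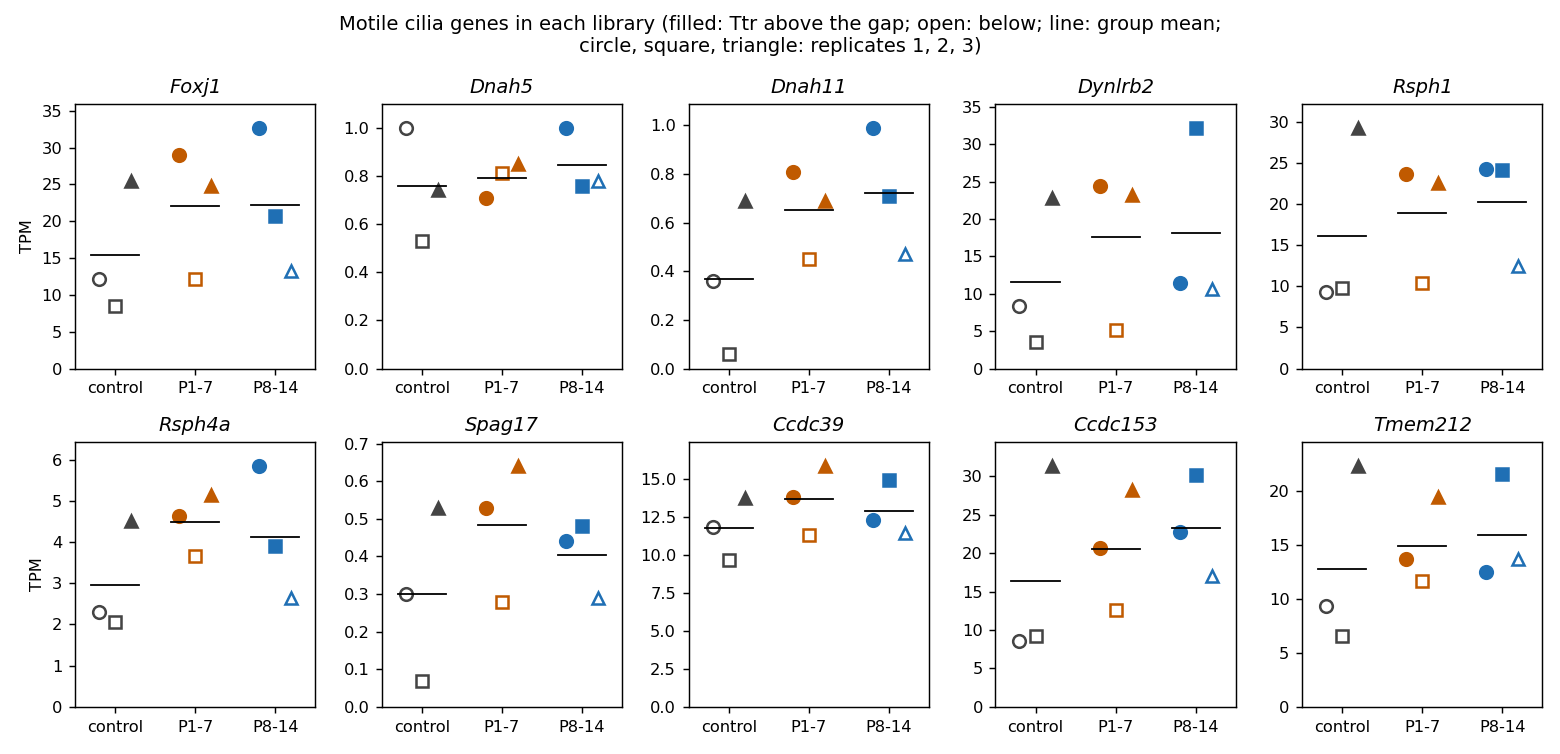
TPM of each of the 10 motile cilia genes (vertical axes, each from 0) in the 9 libraries by group; symbols are single samples, filled where Ttr is above its gap, and lines are group means. Filled symbols sit above open ones in 8 of 10 panels, with Dnah5 and Tmem212 mixed, and in every panel the 3 groups overlap.

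Dnah5 and Dnah11 encode heavy chains of the outer dynein arm, the motor that sets beat frequency. Dnah11 stood at 0.36, 0.06 and 0.69 TPM in the controls, 0.81, 0.45 and 0.69 TPM in PFOS P1-7, and 0.99, 0.71 and 0.47 TPM in PFOS P8-14. It was separated over the Ttr gap, although no library reached 1 TPM. Dnah5 stood at 1.00, 0.53 and 0.74 TPM in the controls, 0.71, 0.81 and 0.85 TPM in PFOS P1-7, and 1.00, 0.76 and 0.78 TPM in PFOS P8-14. Its shared highest value came from control replicate 1, low in Ttr, and PFOS P8-14 replicate 1, high in Ttr, so the sides overlapped. Both genes have very long transcripts, 15637 bases for Dnah5 and 14072 for Dnah11 (longest in GENCODE M21).

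Dynlrb2, on chromosome 8, encodes a roadblock-type dynein light chain that is known from ciliated tissues. It stood at 8.40, 3.49 and 22.78 TPM in the controls, 24.40, 5.19 and 23.21 TPM in PFOS P1-7, and 11.42, 32.21 and 10.63 TPM in PFOS P8-14. The highest library was 9.23 times the lowest, the widest spread of the 7 tested members. Its separation over the Ttr gap was narrow, with 11.42 TPM in PFOS P8-14 replicate 1 just over 10.63 TPM in PFOS P8-14 replicate 3. The paralog Dynlrb1, a subunit of cytoplasmic dynein in all cells, stood at 478 to 596 TPM and did not follow the gap. Dynlrb1 was 17.5 to 167 times as abundant as Dynlrb2, and reads shared between these similar genes could be split by the authors' quantification.

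The radial spoke head genes Rsph1 and Rsph4a were separated in the same way. Rsph1 stood at 9.30, 9.82 and 29.32 TPM in the controls, 23.73, 10.38 and 22.54 TPM in PFOS P1-7, and 24.28, 24.19 and 12.45 TPM in PFOS P8-14. The 4 low libraries lay within 9.30 to 12.45 TPM and the 5 high ones within 22.54 to 29.32 TPM, a wide step between the sides. Rsph4a was less abundant and stood at 2.30, 2.07 and 4.50 TPM in the controls, 4.63, 3.66 and 5.13 TPM in PFOS P1-7, and 5.84, 3.90 and 2.63 TPM in PFOS P8-14. The sides nearly met, at 3.90 TPM above the gap and 3.66 TPM below it.

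Spag17 is a central pair gene and Ccdc39 encodes the molecular ruler that spaces inner dynein arms along the axoneme. Spag17 stood at 0.30, 0.07 and 0.53 TPM in the controls, 0.53, 0.28 and 0.64 TPM in PFOS P1-7, and 0.44, 0.48 and 0.29 TPM in PFOS P8-14. Ccdc39 stood at 11.83, 9.67 and 13.77 TPM in the controls, 13.84, 11.34 and 15.85 TPM in PFOS P1-7, and 12.31, 14.93 and 11.44 TPM in PFOS P8-14. Both were separated over the gap, but Ccdc39 varied least of the tested members, its lowest library at 61.0% of its highest.

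Ccdc153, a coiled-coil gene, and Tmem212, a transmembrane protein gene, are used as ependymal markers. Ccdc153 stood at 8.59, 9.24 and 31.31 TPM in the controls, 20.71, 12.60 and 28.18 TPM in PFOS P1-7, and 22.70, 30.19 and 17.06 TPM in PFOS P8-14. Tmem212 stood at 9.30, 6.58 and 22.26 TPM in the controls, 13.72, 11.62 and 19.38 TPM in PFOS P1-7, and 12.50, 21.56 and 13.66 TPM in PFOS P8-14. In Tmem212 the sides overlapped: PFOS P8-14 replicate 1, high in Ttr, was below PFOS P8-14 replicate 3, low in Ttr.

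RefSeq promoter windows (GRCm38.p6, from 250 bases before to 50 after the start) were found for 7 of the 10 genes. They were searched on both strands for GTTGCC, an arm of the X-box bound by RFX factors, which act with Foxj1 on ciliary genes, and for TGTTTAC, a forkhead core. GTTGCC was in 2 of the 7 windows, against 12.5% of all 32851 windows, and TGTTTAC in 0 of 7, against 3.65%. Facing arms, GTTGC and GCAAC with 3 bases of any kind between, which overlap GTTGCC and were looked for after the Dynlrb2 window had been read, were in 1 of 7 and in 0.225% of all windows. With 4 bases between the arms they were in 0 of 7 and in 0.174%. The windows that held a match, those of Dynlrb2 and Ccdc153, are shown 5′ to 3′. Both genes are among the 8 separated over the Ttr gap. Of the genes whose windows held no match, Dnah11, Spag17 and Ccdc39 were separated too, and Dnah5 and Tmem212 were not. The Dnah5 window (chr15:28203516-28203815, plus strand) lies inside the span of the gene, 28154854 to 28472045. The first bases of that span were therefore not searched. Capitals mark the matches (in Dynlrb2 the whole facing pair), which start 51 bases before the start in Dynlrb2 and 152 before it in Ccdc153. Dynlrb2 is at chr8:116504765-116505064 and Ccdc153 at chr9:44240427-44240726, both on the plus strand.
Dynlrb2: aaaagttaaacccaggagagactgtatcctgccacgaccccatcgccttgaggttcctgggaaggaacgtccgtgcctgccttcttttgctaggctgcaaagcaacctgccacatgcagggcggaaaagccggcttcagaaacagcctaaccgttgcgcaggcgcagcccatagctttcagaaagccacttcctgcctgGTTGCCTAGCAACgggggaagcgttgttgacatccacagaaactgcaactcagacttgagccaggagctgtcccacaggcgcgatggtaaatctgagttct
Ccdc153: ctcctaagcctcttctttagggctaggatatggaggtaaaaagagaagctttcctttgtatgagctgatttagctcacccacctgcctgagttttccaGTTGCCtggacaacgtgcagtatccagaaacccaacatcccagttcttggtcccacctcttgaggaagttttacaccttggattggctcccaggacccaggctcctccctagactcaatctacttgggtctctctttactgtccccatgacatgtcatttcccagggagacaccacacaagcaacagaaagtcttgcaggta
These letters describe the windows and no binding was measured.

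Set beside Ttr, the cilia genes covered a much smaller range. Ttr in its lowest library was 0.302% of its highest. For the 10 members the lowest library held 6.06% (Dnah11) to 61.0% (Ccdc39) of the highest, and Foxj1 held 26.0%. The 6.06% rests on values below 1 TPM, and among the 7 tested members the smallest share was 10.8% (Dynlrb2). The ratio of Ttr to Foxj1 in TPM was 289 to 477 in the 5 libraries above the gap and 3.26 to 8.09 in the 4 below it. In those 4 libraries Ttr still exceeded each cilia gene. Foxj1 was at 8.51 TPM or more there, while Dnah11 and Spag17 reached 0.06 and 0.07 TPM in control replicate 2. Control replicate 2, the library lowest in Ttr at 35.14 TPM, was also the lowest in 8 of the 10 members. PFOS P8-14 replicate 3, the highest in Ttr of the 4 low libraries at 107.66 TPM, was the highest of those 4 in 6 members.

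**Figure D2:**
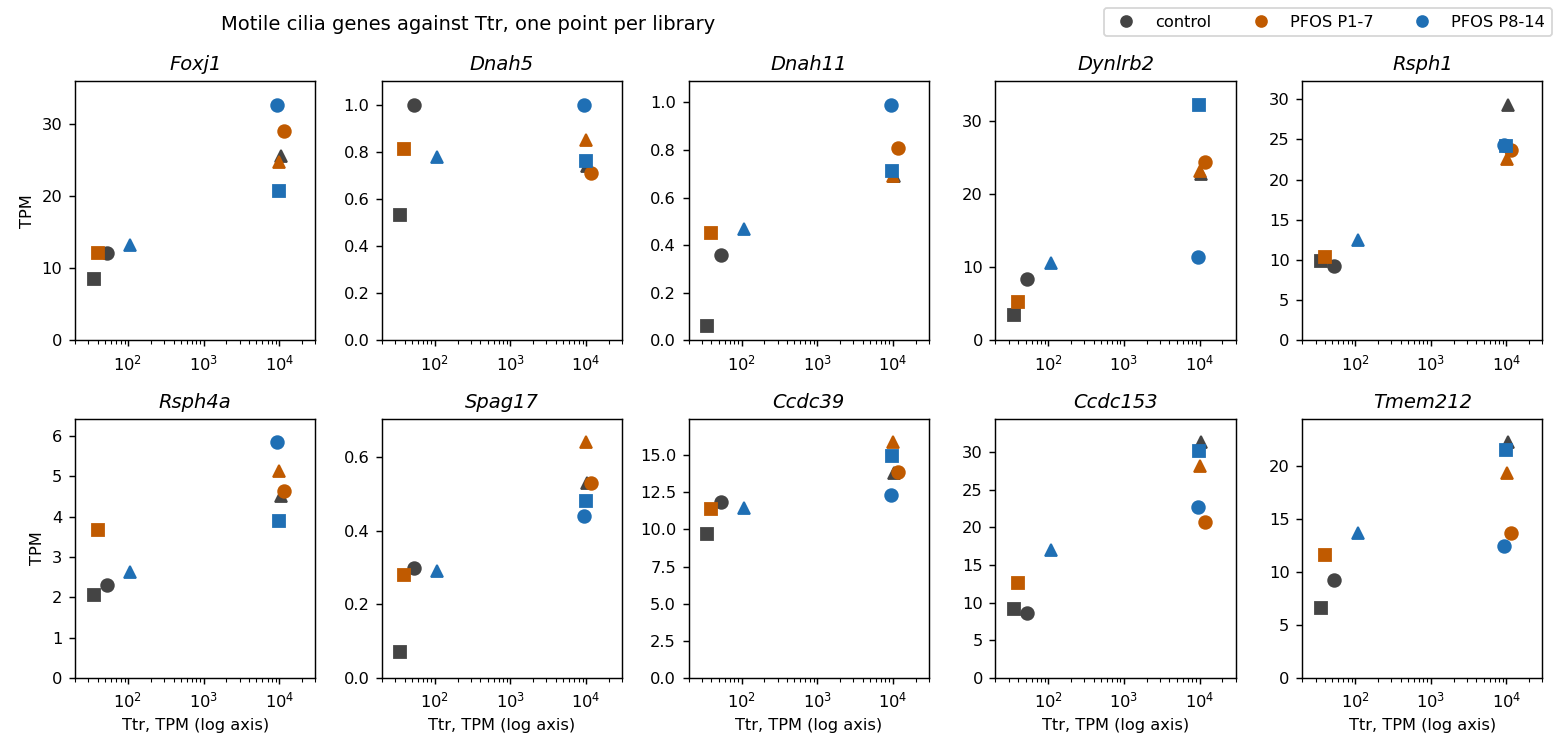
TPM of each motile cilia gene (vertical axes, from 0) against TPM of Ttr (horizontal log axis), 1 point per library, coloured by group, with circles, squares and triangles for replicates 1, 2 and 3. The points form a left cluster of 4 libraries at 35.1 to 108 TPM of Ttr and a right cluster of 5 at 9446 to 11626 TPM, so no correlation over all 9 was tested.

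Within the 5 libraries high in Ttr, the members did not keep one order. Foxj1 and Rsph4a were highest in PFOS P8-14 replicate 1, where Dynlrb2 and Tmem212 had their lowest value of the 5. Dynlrb2 was highest in PFOS P8-14 replicate 2, where Foxj1 and Rsph4a had theirs. The ratio of Dynlrb2 to Foxj1 was 0.349 in the first of these libraries and 1.56 in the second. Rsph1, Ccdc153 and Tmem212 were highest in control replicate 3.

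Transcript length was set beside these orders. The longest transcripts of Dynlrb2, Tmem212, Ccdc153 and Rsph1 are 527, 716, 1087 and 1191 bases, and those of Foxj1 and Rsph4a 2623 and 3650 bases. Across all tested genes, Spearman's rho between transcript length and a library's deviation from the gene mean was -0.50 in control replicate 3 and -0.19 in PFOS P8-14 replicate 2. It was 0.16 in PFOS P8-14 replicate 1, and 0.12 and 0.16 in replicates 1 and 3 of the P1-7 group. In the libraries low in Ttr it was 0.19 and -0.40 in control replicates 1 and 2. It was 0.46 in PFOS P1-7 replicate 2 and 0.30 in PFOS P8-14 replicate 3. PFOS P1-7 replicate 3 held Dynlrb2 at 23.21 and Foxj1 at 24.81 TPM. Genes are not independent replicates. With the trend on length and GC content removed from each library, Foxj1 and Rsph4a remained highest in PFOS P8-14 replicate 1 and Dynlrb2 in PFOS P8-14 replicate 2, while Ccdc153, Tmem212 and Ccdc39 were highest in PFOS P8-14 replicate 2. Rsph1 remained highest in control replicate 3, and Dnah5, Dnah11 and Spag17 became highest there, so that library led 4 members in place of 3. Control replicate 2 was then no longer lowest in Dnah5, Dnah11 and Spag17, and became lowest in Rsph1 and Ccdc153. The part of transcript length in these orders was not tested further. The same 8-of-10 count over the Ttr gap was found there.

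Exposure on days 1 to 7 was set against control first. The mean on the log2(TPM + 1) scale was higher after exposure in all 10 members. The count was 9 after quantile normalization, with Ttr as a covariate, or without control replicate 2. It was 8 once the trend on length and GC content was taken out. The median log2 difference of the members was 0.34 over the 10 and 0.48 over the 7 tested, against 0.09 over all tested genes. None passed. Of the 7 members with at least 1 TPM in 3 samples, 0 passed limma at an adjusted p below 0.05 and 0 had an unadjusted p below 0.05, against 0% of all tested genes by the first rule and 12.5% higher and 5.79% lower by the second. Rsph4a had the smallest p of the 7, with 2.96 ± 1.34 TPM for controls against 4.47 ± 0.747 TPM after exposure (mean ± SD, n = 3 each), a log2 difference of 0.51 (SE 0.27, 95% confidence interval -0.10 to 1.12, limma adjusted p = 0.341). Dynlrb2 had the largest difference, 0.64, and also the largest SE, 0.70 (11.6 ± 10.02 against 17.6 ± 10.8 TPM, limma adjusted p = 0.617). Foxj1 differed by 0.54 (SE 0.44, interval -0.44 to 1.52, limma adjusted p = 0.501).

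The remaining tested members gave the same picture. Ccdc153 differed by 0.48 (SE 0.45), Tmem212 by 0.35 (SE 0.38), Rsph1 by 0.32 (SE 0.45) and Ccdc39 by 0.20 (SE 0.16), each SE on the log2(TPM + 1) scale. Their limma adjusted p ranged up to 0.699. Dnah5, Dnah11 and Spag17 were below the filter, at 0.76 ± 0.24 against 0.79 ± 0.07 TPM, 0.37 ± 0.32 against 0.65 ± 0.18 TPM, and 0.30 ± 0.23 against 0.48 ± 0.18 TPM. In 0 of the 10 members were all PFOS P1-7 libraries higher, or all lower, than all controls, where 12.3% and 6.56% of tested genes were. Single libraries decided the size of the median over the 10 members. Leaving out control replicate 3, the only control above the Ttr gap, gave 0.80. In that fit 5 of the 7 members were higher at an unadjusted p below 0.05, against 6.4% of all tested genes higher and 3.69% lower, and 0 passed after adjustment (smallest limma adjusted p = 0.446). The controls left in that fit lie below the Ttr gap, so this count cannot tell exposure from side of the gap. Leaving out control replicate 1 or 2 gave a median of 0.22 or 0.08, and leaving out replicate 2 or 3 of the exposed group gave 0.56 or 0.19.

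Exposure on days 8 to 14 was set against the same controls. All 10 members had a higher mean than control, and 8 did once the trend on length and GC content was taken out. The count was also 8 without control replicate 2, and 9 with Ttr as a covariate. The median log2 difference of the 10 members was 0.40, and 0.45 over the 7 tested, against 0.06 over all tested genes. Of the 7 tested, 0 passed limma by either rule, where 0% of all tested genes passed the adjusted threshold and 6.33% were higher and 4.65% lower at an unadjusted p below 0.05. Ccdc153 had the smallest p of the 7, with 16.4 ± 12.9 TPM for controls against 23.3 ± 6.59 TPM after exposure (n = 3 each), a log2 difference of 0.69 (SE 0.45, interval -0.32 to 1.70, limma adjusted p = 0.536). Dynlrb2 differed by 0.75 (SE 0.70), Foxj1 by 0.55 (SE 0.44), Rsph1 by 0.45 (SE 0.45) and Tmem212 by 0.43 (SE 0.38). Rsph4a differed by 0.38 (SE 0.27) and Ccdc39 by 0.13 (SE 0.16).

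Of the low members, Dnah11 had a mean of 0.37 ± 0.32 TPM for controls and of 0.72 ± 0.26 TPM after exposure, Spag17 of 0.30 ± 0.23 and 0.40 ± 0.10 TPM, and Dnah5 of 0.76 ± 0.24 and 0.85 ± 0.13 TPM. No member was free of overlap between these groups in either direction, where 7.31% of tested genes were higher and 5.99% lower. Leaving out control replicate 3, again the only control above the Ttr gap, raised the median over the 10 members to 0.77. Then 5 of the 7 members were higher at an unadjusted p below 0.05, against 3.04% of all tested genes higher and 2.87% lower, and 0 passed after adjustment (smallest limma adjusted p = 0.779). The controls left in that fit lie below the Ttr gap, so here too the count cannot tell exposure from side of the gap. The median was 0.17 when control replicate 2 was left out and 0.24 when replicate 1 of the exposed group was. Both comparisons use the same 3 controls, so they are not independent of each other.

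The exposed groups were also set against each other. The median log2 difference of PFOS P8-14 from PFOS P1-7 was 0.05 over the 10 members, 0.08 over the 7 tested and -0.03 over all tested genes. Of the 10 members, 7 were higher and 3 lower. The number higher ranged down to 1, without PFOS P1-7 replicate 2, and up to 9. Foxj1 differed by 0.01 (SE 0.44), Dynlrb2 by 0.11 (SE 0.70) and Ccdc153 by 0.21 (SE 0.45). None of the 7 tested passed limma (0% of all genes did; adjusted p = 1.00 for each after rounding), nor had an unadjusted p below 0.05, where 0.467% were higher and 0.635% lower. Groups overlapped for every member, against 1.9% of genes higher and 4.15% lower without overlap. The intervals were wide, from -0.97 to 0.99 for Foxj1, so the comparison does not show that the exposed groups are alike.

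With log2 of Ttr + 1 as a covariate in the model, the differences of the 7 tested members from control and their errors were smaller in size. Between the exposed groups the errors were smaller too, but the differences of Foxj1, Rsph4a and Ccdc39 were larger in size, at -0.041, -0.16 and -0.091. Foxj1 then differed by 0.16 (SE 0.18) in PFOS P1-7 and 0.12 (SE 0.18) in PFOS P8-14 from control. Rsph1 had the opposite sign, at -0.088 (SE 0.12) and -0.022 (SE 0.12). The median over the 10 members, 3 of them under the filter, was 0.10 and 0.11, beside 0.09 and 0.06 over all tested genes in the same fit. Still 0 of 7 members passed (limma adjusted p from 0.324 to 0.994 over both). Ttr lies far above or far below its gap, so the covariate stands largely for the side of the gap. Control replicate 3 is the only control on the upper side. There the choroid plexus epithelial genes other than Ttr summed to 703 TPM in that control and 932 to 1760 TPM in the exposed libraries. The covariate is thus not a measure of choroid plexus content within a side.

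**Figure D3:**
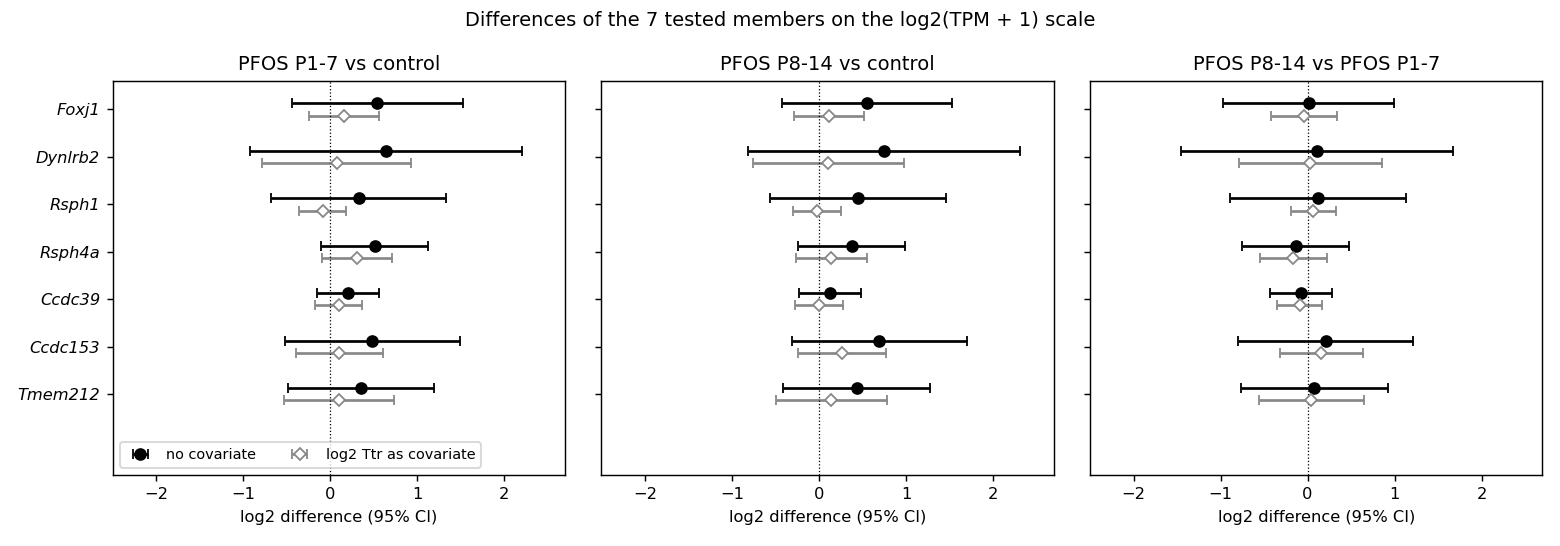
Log2 differences on the log2(TPM + 1) scale (horizontal axes) with 95% confidence intervals for the 7 tested members in 3 comparisons, filled circles without and open diamonds with log2 Ttr as a covariate. Every interval spans 0, and with the covariate the exposed-control differences lie between -0.09 and 0.30.

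Read within the sides of the Ttr gap, exposed and control libraries gave no single direction. Below the gap, both exposed libraries were above both controls in 5 of 10 members (Dnah11, Rsph1, Rsph4a, Ccdc153 and Tmem212), where 24.8% of tested genes showed this. Above the gap, the single control was the highest of 5 libraries in 3 members (Rsph1, Ccdc153 and Tmem212), against 18.4% of tested genes, and alone the lowest in 0, against 44.1%. In Dnah11 it shared the lowest value, 0.69 TPM, with PFOS P1-7 replicate 3. As deposited, Rsph1, Ccdc153 and Tmem212 thus stood higher in the exposed libraries on one side and lower on the other. With the trend on length and GC content removed, Ccdc153 and Tmem212 were no longer highest in that control. Rsph1 still was, and Dnah5, Dnah11 and Spag17 became so. With 1 or 2 libraries per group on a side, no test was made.

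A wider set of axoneme genes also followed the gap. Over 6 lists (outer arm, inner arm, nexin-dynein regulatory complex, radial spoke, central pair, and microtubule inner proteins with tektins), 62 of 68 genes were matched and 53 tested. Of these, 30 were separated over the Ttr gap, or 56.6%, against 4.12% of all tested genes. By list the counts were 4 of 9 for the outer arm, 7 of 9 for the inner arm, 4 of 8 for the regulatory complex, 2 of 6 for radial spokes, 4 of 6 for the central pair and 9 of 15 for the inner proteins. None of the 53 passed limma against control (median log2 difference 0.24 in PFOS P1-7 and 0.20 in PFOS P8-14). At an unadjusted p below 0.05, 3 were higher and 1 lower in PFOS P1-7, where 12.5% and 5.79% of all tested genes were. In PFOS P8-14, 1 was higher and 1 lower, where 6.33% and 4.65% of all tested genes were.

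Several of the most abundant genes of these lists did not follow the gap. Dnal1, an outer arm light chain gene, stood at 48.4 to 66.9 TPM, Rsph9 and Rsph3a, radial spoke genes, at 40.4 to 57.8 and 24.7 to 43.1 TPM, and Gas8, of the regulatory complex, at 24.1 to 47.0 TPM, all with overlap between the sides. Dnai4, Dnali1 and Drc3 were separated, at 3.65 to 7.64, 1.11 to 6.17 and 4.60 to 15.4 TPM. Odad3, Spef1 and Cfap144 were not, at 4.07 to 6.62, 9.22 to 20.2 and 11.5 to 28.9 TPM. From each of the 6 lists the gene of smallest p was taken, and none of them passed. Those from PFOS P8-14 were Dnali1 (0.70 higher, limma adjusted p = 0.497), Gas8 (0.33 higher, limma adjusted p = 0.494) and Rsph3b (0.30 higher, limma adjusted p = 0.426). Those from PFOS P1-7 were Cfap74 (0.39 higher, limma adjusted p = 0.220), Odad2 (0.61 higher, limma adjusted p = 0.226) and Efhc2 (0.45 higher, limma adjusted p = 0.268).

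Genes of ciliary transport, assembly and regulation differed in how many followed the gap, against 4.12% of all tested genes. Of 27 primary cilium and intraflagellar transport genes, which most brain cells use, 0 were separated over the Ttr gap; their summed level was 831 to 930 TPM. Ift20 stood at 132 to 161 TPM and Ift22 at 77.6 to 112 TPM. Ift22, the gene of smallest p in this list, was 0.35 lower in PFOS P1-7 than in control (limma adjusted p = 0.181). Most of the list went the other way, with 23 of 27 higher in PFOS P1-7 and 20 in PFOS P8-14. The median log2 difference in PFOS P1-7 was 0.11, against 0.09 over all tested genes. At an unadjusted limma p below 0.05, 4 were higher and 1 lower there, where 12.5% and 5.79% of all tested genes were. None passed after adjustment. Of the dynein arm assembly factors, 2 of 10 tested were separated, with Cfap298 (59.3 to 82.8 TPM), Spag1 (6.91 to 9.09 TPM) and Dnaaf2 (3.44 to 6.61 TPM) among those that were not. Of the multiciliation regulators, 4 of 8 were. Rfx3, an RFX factor, stood at 20.7 to 34.4 TPM and E2f4 at 30.03 to 36.9 TPM, both with overlap between the sides. E2f4 was 0.23 lower in PFOS P1-7 than in control (limma adjusted p = 0.224). Those groups did not overlap, as in 6.56% of tested genes, while 6 of the 8 regulators were higher in PFOS P1-7.

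Neighbouring cell types gave the scale for this. All 20 choroid plexus epithelial genes were separated over the gap, Ttr itself having drawn it, and their lowest library was at a median of 1.73% of the highest. Enpp2 stood at 99.3 to 1278 TPM and Kl, which encodes the protein klotho, at 5.35 to 46.6 TPM, and Tmem72 and Steap1 reached 0 in at least 1 library. The summed level of the 19 without Ttr was 131 to 703 TPM in the controls, 158 to 1471 TPM in PFOS P1-7 and 174 to 1760 TPM in PFOS P8-14. Above the Ttr gap this sum was lowest in control replicate 3, at 703 TPM, against 932 to 1760 TPM in the exposed libraries. Ttr in that control was 10420 TPM, within the 9446 to 11626 TPM of the exposed ones. Among the 7 tested motile cilia members the lowest library was at a median of 29.6% of the highest, and over all tested genes at 67.4%. The summed level of all 10 members was 50.04 to 151 TPM in the controls, 68.5 to 141 TPM in PFOS P1-7 and 82.7 to 150 TPM in PFOS P8-14. How much of the members' differences between libraries runs with choroid plexus RNA was not tested beyond the Ttr covariate.

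Ependymal genes outside the axoneme lay between, with 6 of 8 separated and a median lowest library at 42.2% of the highest. Pltp stood at 88.8 to 143 TPM and Vim at 53.8 to 88.1 TPM, both separated, and Riiad1 at 3.88 to 18.6 TPM, not separated. Choroid stroma and leptomeningeal genes were separated in 2 of 10, Igfbp2 (24.95 to 196 TPM) being one and Dcn (17.9 to 52.03 TPM) not. Hippocampal markers were separated in 0 of 10, thalamic markers in 0 of 7 and striatal markers in 1 of 8. Neurod6, a pyramidal neuron gene, stood at 213 to 329 TPM, Wfs1 at 122 to 233 TPM and Dsp, a granule neuron gene, at 9.85 to 18.3 TPM. Dsp was 0.63 and Wfs1 0.52 higher in PFOS P1-7 than in control (limma adjusted p = 0.181 for each). Of the 10 hippocampal markers, 3 were higher and 1 lower there at an unadjusted limma p below 0.05. Of all tested genes, 12.5% and 5.79% were. Among the others, Calb2 stood at 50.9 to 150 TPM, Prkcd at 20.8 to 67.9 TPM and Plekhg1 at 15.03 to 26.9 TPM. Penk stood at 19.6 to 25.9 TPM, Adora2a at 1.82 to 3.97 TPM and Ppp1r1b, the separated striatal gene, at 43.4 to 101 TPM. In PFOS P1-7, Plekhg1 was 0.49 higher than in control and Calb2 0.72 lower (limma adjusted p = 0.181 and 0.220). In PFOS P8-14, Adora2a was 0.44 lower than in control (limma adjusted p = 0.426).

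**Figure D4:**
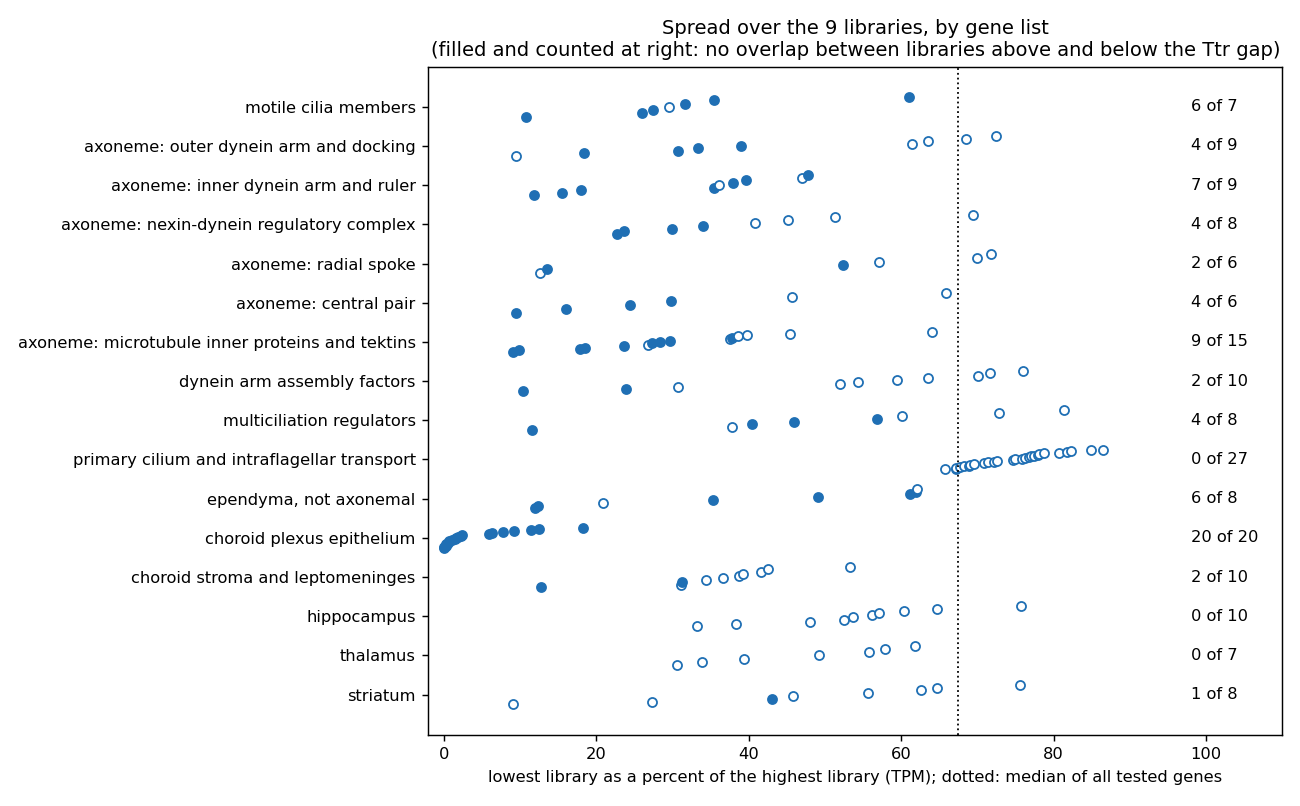
The lowest library as a percent of the highest (horizontal axis) for each tested gene of each list (rows), filled where the 5 libraries high in Ttr do not overlap the 4 low ones, with counts at the right. Motile cilia members lie mostly between the choroid plexus genes near 0% and the primary cilium genes. The primary cilium genes lie at 65.8% to 86.5%, with a median of 74.9%, mostly above the dotted median of all tested genes at 67.4%.

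The genes whose profile was most like the members' mean were sought over the 9 libraries by Pearson's r with the mean standardized log2 level of the 7 tested members. The 10 closest genes outside the members had r from 0.96 to 0.99. They were 2 predicted genes, Wdr96, Ccdc113, Gltp, Armc3, Plin5, Tcea3, Wdr16 and Ccdc108. All 10 were separated over the Ttr gap. They were picked for likeness to a mean that follows the gap, so this count is a description only. Armc3, Plin5 and Tcea3 reached 1 TPM only in libraries high in Ttr. Wdr96, listed now as a cilia and flagella associated gene, stood at 0.82 to 4.07 TPM, Ccdc113 at 1.36 to 7.46 TPM and Gltp, a glycolipid transfer protein gene, at 104 to 154 TPM. Wdr16 is an older symbol of Cfap52, a microtubule inner protein gene of the lists above, at 0.70 to 7.10 TPM. Ttr itself had r = 0.96 and ranked 12 of 14336 genes with the members counted, of which Ccdc153 ranked 10. These values describe 9 libraries in 2 clusters, which all the genes share, and carry no p.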

How the data were processed

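RNA of 9 hippocampus samples was sequenced from stranded, poly(A)-selected libraries, per the labels' protocols. The authors deposited 1 table of TPM per gene symbol, given to 2 decimals. Per the submitters' processing notes, bcl2fastq, fastp 0.21.0, STAR 2.5.3a, RSEM 1.3.3 and genome build mm10 were used. The gene annotation was not given in the sources used here, nor were filters. Depth is unknown, so no counting interval was computed.

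Differences were tested on log2(TPM + 1) with limma 3.58.1 in R 4.3.3, using a mean per group over all 9 samples, a variance trend, and Benjamini-Hochberg adjustment over the 14336 genes that reached 1 TPM in 3 or more samples. The threshold was an adjusted p below 0.05, two-sided. The code was tested on simulated data. Fold changes on this scale understate changes of low genes. The Ttr gap is the widest step in log2 Ttr between neighbouring libraries. Symbols were matched to RefSeq (GRCm38.p6) and transcript lengths to GENCODE M21. Figures were drawn with matplotlib 3.10.9.

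From each other list, the 2 genes of highest mean TPM and the 1 with the smallest p were named, with the 10 genes most like the members. A gene that this rule selects is not reported here. Members, lists and settings were chosen with earlier results of these data known. The search for promoter letters and the removal of the length and GC trend (loess, span 0.5) were added after the data were seen. Other settings were pseudocounts of 0.1 and 5, no filter or one at 5 TPM, median-of-ratios and quantile scaling, a replicate block, Ttr as a covariate, only the compared groups, array weights, no variance trend, and each sample left out.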

Additional observations from a re-analysis of the deposited data

How the results depend on the processing

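No tested motile cilia member passed limma in any of the 438 values for single members under other settings (146 per comparison), with the smallest adjusted p at 0.201 for PFOS P1-7, 0.369 for PFOS P8-14 and 0.960 between the exposed groups. Against control the 7 tested members kept their direction except Rsph1 with Ttr as covariate (-0.088 and -0.022); the cause was not tested. Between the exposed groups Foxj1 changed sign with Ttr as covariate (-0.041), array weights (-0.079) and the length and GC trend removed (-0.016). With each sample left out in turn, that comparison ranged from -0.35 to 0.32 for Foxj1, -0.56 to 0.46 for Dynlrb2, -0.24 to 0.43 for Rsph1, -0.37 to 0.090 for Rsph4a, -0.19 to 0.030 for Ccdc39, -0.085 to 0.47 for Ccdc153, and -0.15 to 0.27 for Tmem212. The median over the 10 members ranged from 0.08 to 0.80 in PFOS P1-7, 0.17 to 0.77 in PFOS P8-14, and -0.19 to 0.17 between them.

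The count of all genes called depended on the library weights: array weights gave 2914 in PFOS P1-7 and 1053 in PFOS P8-14, against 0 with all samples under the other settings; the cause was not tested. Leaving out samples gave 0 to 2658 and 0 to 1741, the highest without control replicate 1, and 1 in PFOS P1-7 without PFOS P8-14 replicate 1. Where a group is left with 2 samples, the spread is pooled over groups. The replicate block, a fit with the replicate number, called 0 genes in each comparison. Same-numbered libraries had correlations of -0.47 to 0.53 over 9 pairs, and 1 of 9 libraries correlated best with its own number, so the labels' numbers were not used as pairs. Median-of-ratios scaling left the count over the Ttr gap at 8 of 10 members and moved the median of all genes from 0.09 to 0.01 in PFOS P1-7. Unknown depth limits Dnah5, Dnah11 and Spag17 most.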
